A study of Drosophila melanogaster with 2 samples.

Results

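Exonic summits away from transcription start sites (TSSs) are the points of highest ATbp signal that fell inside an exon. A summit was kept when it lay in an exon of any gene, with transposable elements left out, and more than 500 bp from every annotated TSS. Of 30000 summits in the pooled peak list, 1875 met this rule, which is 6.25%. They were split in this order into 728 in coding sequence, 271 in 5' UTRs, 557 in 3' UTRs and 319 in other exons. The other exons were those of non-coding RNA genes for 316 summits and of pseudogenes for 3.

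The study mapped the DNA bound by ATbp in Drosophila melanogaster by chromatin immunoprecipitation and sequencing, in which a tagged protein is pulled down with the DNA it is fixed to. All samples came from 1 transgenic line that stably expresses ATbp fused at its C-terminal end to green fluorescent protein, and an antibody against the tag was used. Chromatin came from whole embryos, male and female pooled, collected from 0 to 14 h of development and sonicated to 200 to 800 bp. There was 1 group of 2 biological replicates, no second condition, and no control library was analysed here. Whole embryos mix many tissues and stages, so a weak summit in all cells and a strong one in few cells cannot be told apart.

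The zinc finger protein ATbp takes its name from binding to A+T-rich DNA. Transcription factors of the fly are mostly studied at promoters, introns and the DNA between genes, where most known enhancers lie. Coding sequence has to keep its protein code and is poorer in A and T than introns, whereas UTRs and the exons of non-coding RNAs carry no such code. Some enhancers are nevertheless known inside exons.

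The relaxed lists of both replicates and of the pooled reads each held 30000 summits, and the list that passed the irreproducible discovery rate (IDR) analysis held 5921. By the authors' signal value the IDR summits were the 5921 strongest pooled ones, so IDR membership was a threshold on rank. Each replicate was therefore also read through its own strongest 5921 summits. The 1875 exonic members included 188 IDR summits, namely 20 in coding sequence, 40 in 5' UTRs, 61 in 3' UTRs and 67 in exons of non-coding RNAs.

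To show the members at the DNA level, the 30 bases around the summit are given on the plus strand of dm6 for the 3 strongest coding members and the 3 strongest non-coding RNA members whose sequence can be shown. The coding members klar and HisRS were added after their windows were seen to hold the same core as the strongest coding member. In Pde1c (chr2L:11816560-11816589), klar (chr3L:506258-506287) and HisRS (chrX:18517600-18517629) the capitals mark matches to AGNNGGCGC, the core of the motif of the insulator protein CTCF, or to its reverse complement. In l(3)mbn (chr3L:6124807-6124836), CG4822 (chr2L:117929-117958), lncRNA:CR46035 (chr3R:17704404-17704433), lncRNA:Hsromega (chr3R:21297684-21297713) and lncRNA:CR44363 (chr3L:11406030-11406059) they mark runs of at least 4 A or T.
Pde1c: aggccgcaGCGCCATCTgccggctccgcag
klar: cagacccaAGGTGGCGCtgctgtgcagact
HisRS: gtgcaacgttccAGACGGCGCCCTCTggcg
l(3)mbn: agggtacATTTccggttggtgTATTcgctg
CG4822: ctggacATTAAgtacacaatggatagATAA
lncRNA:CR46035: tgatcaagtcactcatcAAAAgactgaact
lncRNA:Hsromega: ttcTAAActagattgtagacgTTTTAAcat
lncRNA:CR44363: ATTTAcAAAAATATATATcATATTggTATT
The Pde1c, klar and HisRS sites, of which the last pair was chosen for the core, held 7, 11 and 9 A or T among their 30 bases. The other coding sites held 15 in l(3)mbn and 20 in CG4822. The 3 non-coding RNA sites held 19, 22 and 26, so the groups overlapped.

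Coding sequence was nearly free of strong ATbp summits. Exons of non-coding RNAs held them at about the density of introns when all TSS distances and A+T contents were pooled. Within single bins, the Poisson 95% intervals of other exons and introns were apart only at 60 to 70% A+T and at 501 to 1000 bp. Other exons were denser than introns in that A+T bin and sparser in that distance bin. In the remaining bins of A+T and of TSS distance the intervals overlapped. Of the 1875 exonic summits, 188 were in the IDR list, which is 10.03% (95% Wilson interval 8.75 to 11.5), against 19.7% of all pooled summits. The percentage was 2.75% in coding sequence (1.79 to 4.21), 11.0% in 3' UTRs (8.62 to 13.8), 14.8% in 5' UTRs (11.0 to 19.5) and 21.003% in other exons (16.9 to 25.8). For summits in introns it was 19.1%. The coding interval lay below those of the other exon classes, and the intervals of the 3' UTRs and other exons did not overlap either. All intervals cover counting error only, and summits of 1 list are not replicates.

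Each replicate gave the same order, with overlapping intervals for 5' UTRs and other exons in both. The order of 5' and 3' UTRs turned with the rule: at more than 1000 bp from a TSS their shares were 8.93% and 11.04%, and at positions in no intron 8.80% and 11.4%. Replicate 1 had 19 coding summits among its strongest 5921, out of 815 in its relaxed list, which is 2.33%. Replicate 2 had 16 of 1200, which is 1.33%. In 5' UTRs the corresponding percentages were 15.5% and 17.6%, in 3' UTRs 9.67% and 10.3%, and in other exons 23.0% and 19.9%. The relaxed coding summits were thus more numerous in replicate 2, whereas the strong ones were not.

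Classes differ in length, so summits were also counted per megabase (Mb) of each class lying more than 500 bp from a TSS. Coding sequence covered 18.6 Mb and held 1.07 IDR summits per Mb (exact Poisson 95% interval 0.66 to 1.66). The replicates' strongest lists gave 1.02 and 0.858 per Mb. The 3' UTRs, covering 5.93 Mb, held 10.3 per Mb (7.87 to 13.2), with 10.8 and 10.1 in the replicates. The 5' UTRs, covering 0.810 Mb, held 49.4 per Mb (35.3 to 67.2), with 60.5 and 51.8 in the replicates. Other exons, covering 1.07 Mb, held 62.8 per Mb (48.7 to 79.8), with 61.9 and 60.9 in the replicates. Introns held 52.3 per Mb, which is 48.7 times the coding density. The replicates' own lists gave 50.2 and 59.99 times.

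**Figure D1:**
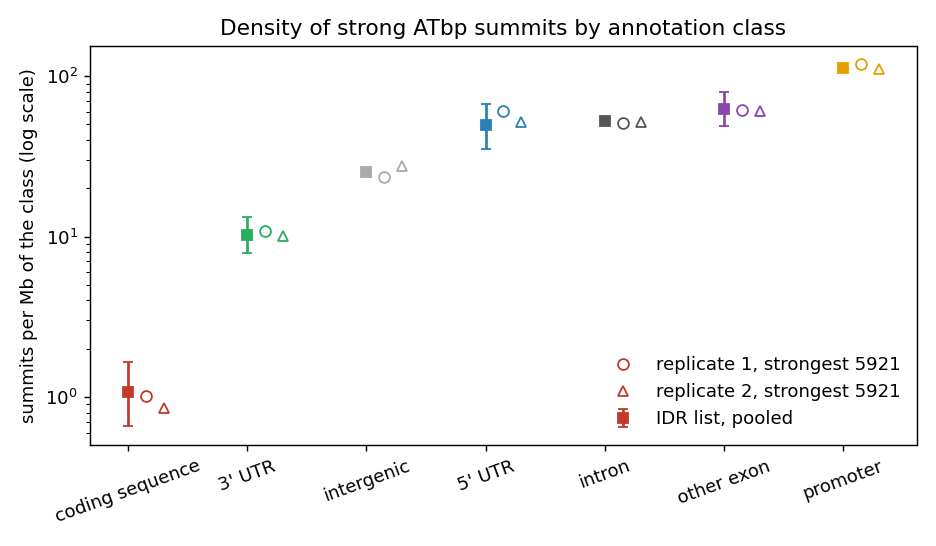
IDR summits per Mb of each annotation class (squares, with exact Poisson 95% intervals) and the strongest 5921 summits of replicate 1 (circles) and replicate 2 (triangles), on a log axis. Coding sequence sits near 1 per Mb in all 3 lists, 3' UTRs near 10, and 5' UTRs, introns and other exons between 49 and 63 in the IDR list.

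The difference between coding sequence and introns was smaller in the whole relaxed list, which includes the IDR summits, than in the IDR list. In the whole relaxed list coding sequence held 39.1 summits per Mb and introns 273, a ratio of 6.99. In the relaxed lists of the replicates the ratio was 6.04 and 4.15. Read by rank, coding sequence took 0.233% of the 3000 strongest pooled summits (0.113 to 0.481) and 6.03% of the 3000 weakest (5.24 to 6.94). Summits in 3' UTRs took 0.967% of the strongest 3000 and 2.87% of the weakest 3000. Other exons took 1.27% of the strongest 3000 and 1.13% of the weakest 3000, with overlapping intervals.

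**Figure D2:**
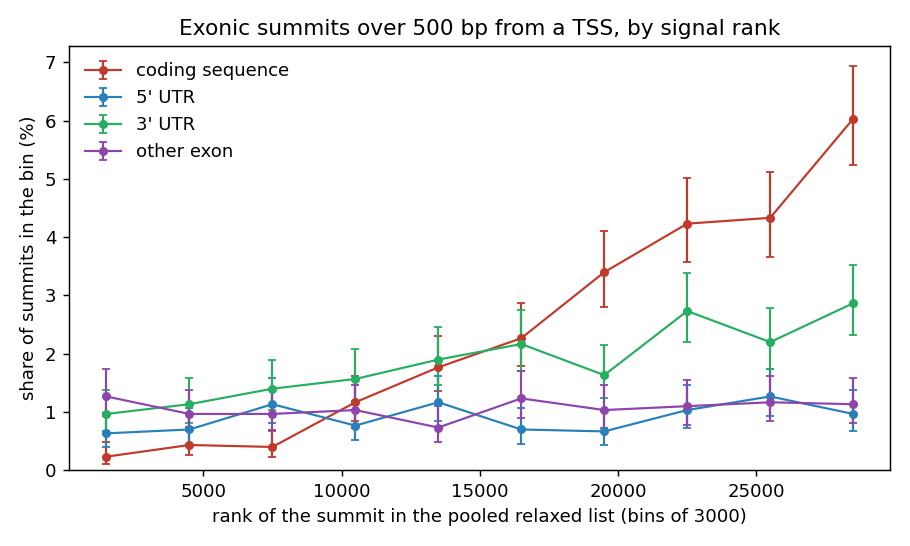
Share of the summits in each bin of 3000 ranks of the pooled relaxed list that fell in each exon class, with Wilson 95% intervals. The coding share climbs from 0.233% in the strongest bin to 6.03% in the weakest, whereas the shares of 5' UTRs and other exons stay near 1%.

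Coding summits were found again in both replicates less often than those of the other exon classes. A summit of each replicate lay within 100 bp for 31.5% of exonic members (29.5 to 33.7), against 44.3% of all pooled summits. The share was 19.0% in coding sequence (16.3 to 22.0), 34.5% in 3' UTRs (30.6 to 38.5), 41.0% in 5' UTRs and 47.0% in other exons. Outside the IDR list it was 16.8% in coding sequence and from 27.6% to 33.7% in the other exon classes. Among the 188 exonic IDR summits, 177 were found in both replicates, namely 19 of 20 coding, 38 of 40 in 5' UTRs, 55 of 61 in 3' UTRs and 65 of 67 in other exons. Their median offset from the pooled summit was 6 bp in replicate 1 and 13 bp in replicate 2. Of these 177 summits, 121 ranked within the strongest 5921 of both replicates. The pooled list was made from the same reads as the replicate lists, so this is no independent check.

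**Figure D3:**
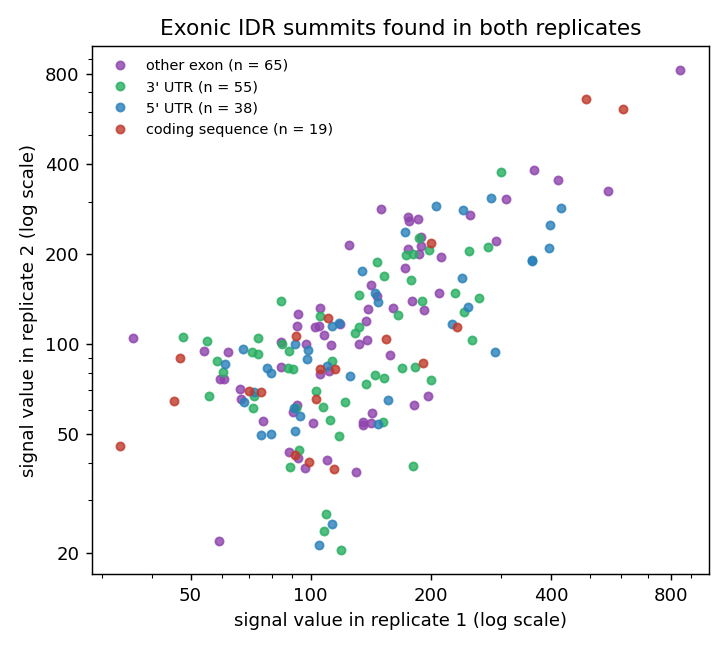
Authors' signal value in replicate 1 and replicate 2, both on log axes, for the 177 exonic IDR summits found in both, coloured by class. Pde1c and otp are the 2 coding points at the upper right, beside the strongest non-coding RNA point, lncRNA:CR46035.

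Density did not follow base composition across the classes, and windows of like A+T content were therefore compared. Coding bases averaged 46.6% A+T, 5' UTRs 56.8%, other exons 58.0%, introns 60.2% and 3' UTRs 64.8%. The 3' UTRs, the richest of these in A+T, had a lower density than 5' UTRs, other exons and introns. Within windows of 101 bp holding 40 to 50% A+T, coding sequence had 0.755 IDR summits per Mb from 7 summits and introns had 18.7. At 50 to 60% the values were 1.19 from 6 summits and 30.3, and at 60 to 70% they were 2.67 from 3 summits and 64.6. The ratio was 24.8, 25.5 and 24.2 in these bins, against 48.7 over all windows. At 60 to 70% both replicates gave 3 coding summits and ratios of 23.7 and 24.5. At 40 to 50%, with 4 and 2 coding summits, the replicates gave 57.4 and 72.8. Below 40% the pooled ratio was 16.2, from 4 coding and 12 intron summits. Splitting by A+T content was chosen after the composition of the classes was seen.

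The 3' UTRs behaved differently from other exons at like composition. At 60 to 70% A+T they held 9.54 IDR summits per Mb (6.11 to 14.2), against 112 in other exons (77.4 to 158) and 64.6 in introns (61.0 to 68.4). At 70% A+T and more they held 7.94 (4.34 to 13.3), against 150 in other exons and 107 in introns. From 40 to 50% up to the richest windows, density climbed in other exons from 4.68 (0.119 to 26.1, from 1 summit) to 150 per Mb (92.7 to 229). In 3' UTRs it went from 17.3 to 7.94, with overlapping intervals.

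**Figure D4:**
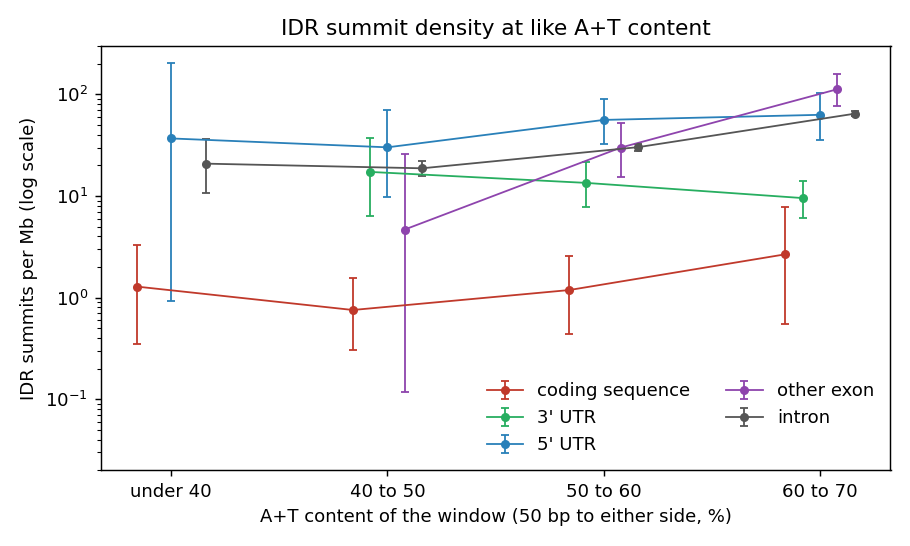
IDR summits per Mb in 101 bp windows of like A+T content, with exact Poisson 95% intervals, on a log axis, for the 4 exon classes and introns. Classes with no IDR summit in a bin have no point. Coding sequence lies below introns in every bin shown, and 3' UTRs fall below introns at 50 to 60% and above.

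Density was also read by distance to the nearest TSS. In 5' UTRs, 30 of the 40 IDR summits lay 501 to 1000 bp from a TSS, at 82.5 per Mb (55.7 to 118), and the stretch from 1001 to 2000 bp held 27.4 (8.89 to 63.9). Introns went from 103 to 84.6 over the same distances. Coding sequence held 1.35 and 1.31, 3' UTRs 9.32 (4.26 to 17.7) and 16.2 (10.5 to 24.0), and other exons 62.5 (41.6 to 90.4) and 80.7 (51.7 to 120). The intervals at both distances overlapped in all 4 exon classes and did not in introns. Just inside the threshold of the rule, from 501 to 600 bp, 26 of 165 exonic summits were IDR summits (15.8%). Just outside, from 401 to 500 bp, 33 of 200 were (16.5%).

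Exons of 1 transcript can be introns of another, and density differed with this overlap in 5' UTRs and coding sequence. Of the 40 IDR summits in 5' UTRs, 29 also lay in an intron of another transcript, as did 8 of 20 in coding sequence, 9 of 61 in 3' UTRs and 23 of 67 in other exons. The 5' UTR bases shared with an intron held 82.5 IDR summits per Mb (55.2 to 118), and those in no intron held 24.0 (11.97 to 42.9). Coding bases shared with an intron held 3.34 per Mb (1.44 to 6.58), and those in no intron 0.739 (0.382 to 1.29). In 3' UTRs the values were 8.59 and 10.7, and in other exons 68.7 and 60.1, with overlapping intervals in both.

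The 20 coding members were led by 2 summits that stood far above the rest. The summit in the last exon of Pde1c, a cyclic nucleotide phosphodiesterase, ranked 125 in the pooled list, with signal 607 in replicate 1 and 611 in replicate 2. The summit in the last exon of otp, a homeodomain transcription factor, ranked 147 (chr2R:20884433-20884726), with 489 and 663. Both were high in both replicates, and the next coding member ranked 1121. That was l(3)mbn, with 201 in replicate 1 and 218 in replicate 2. CG4822 followed with 232 and 114, and Cht6, which encodes a chitinase, with 191 and 86.8. CG4822 ranked 1056 of 30000 in replicate 1 and 2624 in replicate 2, and Cht6 ranked 1459 and 3800. Signal values are compared here only within a replicate, since the scale of the lists is not given, and ranks are used between them.

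The remaining 15 coding members had pooled ranks from 2218 to 5885, with 13 of the 20 coding members past rank 3000. CG5895 had 154 in replicate 1 and 104 in replicate 2, and Tim17b1, a subunit of the mitochondrial inner membrane import machinery, had 110 and 122. The klar summit, in a gene for a protein that ties nuclei to microtubule motors, had 92.1 and 107. CG14764 had 115 and 82.2, and wb, a laminin alpha chain, had 105 and 82.8. In jing, a zinc finger factor, the values were 103 and 65.4. All of these were seen in both replicates.

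Several lower coding members ranked past 5921 in 1 replicate. CG4230 had 98.8 in replicate 1 and 40.3 in replicate 2, and bun, of the TSC22 family, had 115 and 38.3. They ranked 3960 and 3223 in replicate 1, and 9720 and 10412 in replicate 2. HisRS, the histidyl-tRNA synthetase, had 46.9 at rank 10933 in replicate 1 and 89.5 at rank 3666 in replicate 2. Sgs3, a salivary gland glue protein, had 45.4 at rank 11446 and 64.3 at rank 5432. CG31259 had 70.2 at rank 6330 and 69.4 at rank 4949. The tetraspanin gene Tsp42Ek had 91.4 at rank 4403 and 42.5 at rank 9089. The kinase gene sgg had 75.2 and 69.2, within 5921 in both replicates at ranks 5773 and 4977. Sugb had 33.3 at rank 17318 in replicate 1 and 45.5 at rank 8281 in replicate 2, past 5921 in both. The nuclear receptor gene Hnf4 had 71.3 at rank 6205 in replicate 1 and no summit within 100 bp in replicate 2.

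By the median, coding summits lay nearer the edges of their coding blocks than coding bases did. The median distance from a coding IDR summit to the edge of coding sequence was 75 bp (range 5 to 542, n = 20), against 93.5 bp for all 728 coding summits and 170 bp for all coding bases. Within 50 bp of an edge lay 7 of the 20 IDR coding summits (35%), 31.5% of all coding summits and 20.7% of coding bases. No interval was computed for these shares, and 4 of the 20 lay more than 200 bp from an edge. The fragments, of 200 to 800 bp, were longer than these median distances. The deposited interval was coding over its whole length for 7 of the 20, namely CG4822, Cht6, Tim17b1, klar, wb, Sgs3 and Hnf4. Of these 7, klar, Sgs3 and Hnf4 did not also lie in an intron of another transcript. The intervals of 4 coding IDR members reached within 500 bp of a TSS, by 46.0% of the interval for Sgs3 and 45.3% for CG31259.

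The coding members differed from the other classes in sequence at the summit. Mean A+T in 101 bp around IDR summits was 48.5% ± 10.3 in coding sequence (SD over 20 summits), 58.6% ± 8.35 in 5' UTRs (40), 63.3% ± 8.63 in 3' UTRs (61) and 66.5% ± 8.02 in other exons (67). Against the bases of their own class, other exon summits were richer by the most, at 66.5% against 58.0%, while the 5' UTR and coding summits were at 58.6% against 56.8% and 48.5% against 46.6%. The 3' UTR summits, at 63.3%, were below the 64.8% of their class. Intron IDR summits were at 65.01% against 60.2%. Relaxed summits outside the IDR list averaged 57.1% in other exons and 46.2% in coding sequence.

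**Figure D5:**
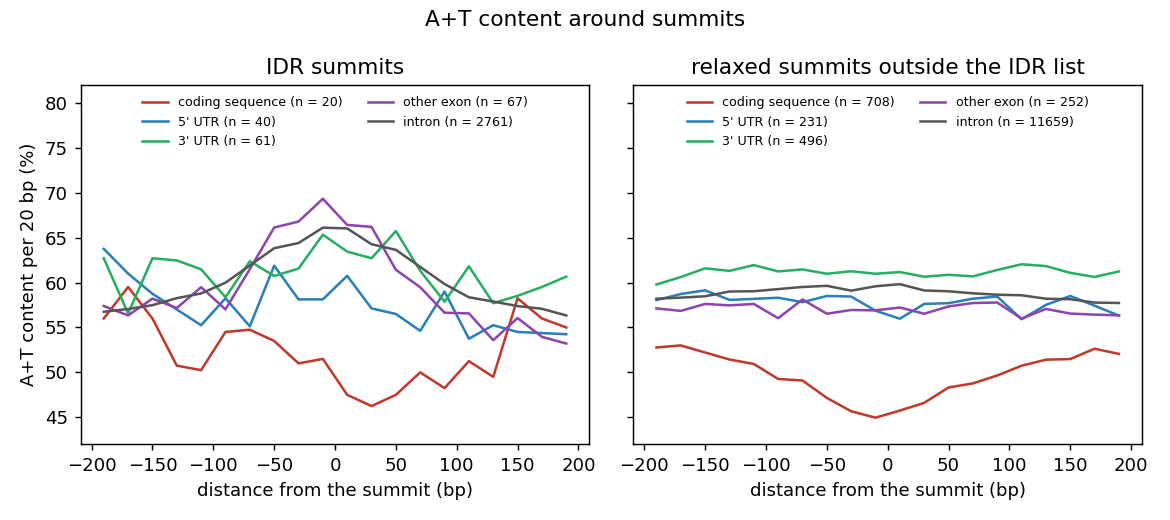
Mean A+T content in 20 bp bins against distance from the summit for IDR summits (left) and relaxed summits outside the IDR list (right), by class, with the number of summits in the legend. In other exons and introns A+T peaks at IDR summits, while relaxed coding summits outside the IDR list dip at the summit.

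Among coding members A+T ran from 30.7% at Pde1c to 69.3% at sgg. An unbroken stretch of 8 or more A or T lay in the windows of 4 of them, CG4822, CG5895, sgg and Sugb. Such stretches were in 80.6% of IDR windows in other exons (69.6 to 88.3), 68.9% in 3' UTRs (56.4 to 79.1), 65% in 5' UTRs (49.5 to 77.9) and 20% in coding sequence (8.07 to 41.6). The share over windows of the same length tiled along each class was 52.7%, 69.05%, 49.1% and 12.8%. In other exons outside the IDR list it was 52.0%.

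The CTCF core AGNNGGCGC, searched on both strands, was also searched. It was found in 4 of 20 coding IDR windows (20%, 8.07 to 41.6), as many as held a run of A or T, and these were Pde1c, otp, klar and HisRS. It was in 21 of 708 coding windows outside the IDR list (2.97%) and in 1.94% of tiled coding windows. The 4 coding IDR windows with the core were the only ones below 40% A+T, and the compared windows were not matched for A+T. The core covered the summit itself in Pde1c, klar and HisRS, and its nearer end lay 29 bases away in otp. Pde1c and HisRS each held a pair of matches, overlapping in HisRS. The core was chosen after the Pde1c sequence was seen, and that member stands in the count. Outside coding sequence it was in 1 of 40 windows in 5' UTRs, that of Mef2, in 2 of 61 in 3' UTRs, those of Hr4 and Cam, and in 0 of 67 in other exons. Introns had it in 0.869% of IDR windows. A match is a stretch of letters and not evidence that CTCF was there.

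Of the other motifs searched, CCAGGA was rarer and CAAACA more frequent at IDR members than at the other members when the exon classes were pooled. CCAGGA was in 0 of 188 exonic IDR windows, whose upper limit is 2.00%, in 5.04% of exonic windows outside the IDR list and in 7.61% of tiled exonic windows. It was also rarer in intron IDR windows, at 0.869%, than in the other intron windows, at 2.13%. CAAACA was in 20.7% of exonic IDR windows (15.6 to 27.1) and 11.4% of the others (9.95 to 13.0), and introns gave 20.6% and 15.4%. These exonic shares mix the classes unequally, since 20 of 188 IDR windows but 708 of 1687 others were coding. Coding windows outside the IDR list held CCAGGA in 8.90% and CAAACA in 5.37%. In each of the 4 exon classes both differences had the same direction, with overlapping intervals. ACAGTG was in 7.98% (4.89 to 12.7) against 5.33%, and GAGAG in 14.4% (10.1 to 20.1) against 13.6%, with overlapping intervals. Each motif was searched on both strands.

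The strongest exonic member lay in the exon of a long non-coding RNA. Of the 67 IDR summits in other exons, 62 were in genes named lncRNA and 5 in genes named asRNA, for antisense RNA. The first, in lncRNA:CR46035, ranked 49 of 30000 in the pooled list, with signal 845 in replicate 1 and 827 in replicate 2. lncRNA:Hsromega, whose nuclear transcripts gather RNA-binding proteins after heat shock, followed at rank 280 with 557 and 326. lncRNA:CR44363 was at rank 374 with 416 and 354. All 3 were high in both replicates. The CR46035 and Hsromega summits also lay in an intron of another transcript, and the CR44363 summit was 510 bp from a TSS.

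The gene with most members was lncRNA:CR43334, a single exon of 15466 bp on the plus strand (chr3L:628435-643900) that spans mir-ban, the gene of the growth-promoting microRNA bantam. It held 16 relaxed summits, of which 7 were IDR summits spread over 13347 bp. In order along the exon, the IDR summits had replicate 1 and replicate 2 signals of 111 and 81.1, 309 and 306, 363 and 383, 213 and 195, 90.2 and 59.5, 176 and 267, and 130 and 37.3. The second and the third of these were the highest in both replicates. Among these 16 members, the nearest to mir-ban lay 623 bp away (the last IDR summit) and 645 bp away (a relaxed summit of rank 6129). Summits within 500 bp of a TSS were left out by the rule, so these need not be the nearest of all summits. Another IDR summit, not among the members, lay 252 bp from the last IDR summit. Closest neighbours among the 7 were 1113 bp apart, and 6 of the 7 had more than 60% A+T.

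Other leading non-coding members were single summits in lncRNA:CR42719, with 251 in replicate 1 and 270 in replicate 2, and repeated ones in lncRNA:CR43126, lncRNA:CR44365 and lncRNA:CR44619. In CR43126 the strongest of 3 had 292 and 221. In CR44365 the stronger of 2 had 176 and 259, with 81.2% A+T, and in CR44619 186 and 261. lncRNA:CR44603 held a pair with 175 and 208, and 192 and 130. lncRNA:CR45911 held a pair 199 bp apart, of which one had no summit in replicate 1.

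The 10 strongest 5' UTR members lay 512 to 961 bp from a TSS, and 8 of them also lay in an intron of another transcript. CAP, an adaptor of muscle attachment sites, held 2 of them, 27296 bp apart, with 424 in replicate 1 and 286 in replicate 2, and 397 and 209. The pseudokinase receptor gene otk had 397 and 251. Raf, the kinase that activates MEK, had 283 and 309. The kinase gene dop had 358 and 191, and Pdp1, a bZIP factor of the circadian clock, 359 and 190. Fbl6 had 241 and 282, and cic, an HMG-box repressor acting below receptor tyrosine kinases, had 206 and 291. The ethanolamine kinase gene eas had 173 and 237, and Ssdp 240 and 167. All 10 were present in both replicates, at 50.5 to 64.4% A+T.

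The 10 strongest 3' UTR members lay farther out, from 605 to 9722 bp from a TSS. The first fell where the 3' UTRs of Cals, the calsyntenin gene, and of sv, a Pax transcription factor, overlap on chromosome 4 (chr4:1113178-1113455), with 300 in replicate 1 and 377 in replicate 2. CG7872 had 278 and 212, and scf, at 81.2% A+T, 250 and 206. The tensin gene by had 186 and 227, and CG7778 264 and 142. The values were 198 and 207 in stas, 229 and 148 in CG13949, and 173 and 198 in APC7, a subunit of the anaphase-promoting complex. NetB, a netrin axon guidance cue, had 180 and 200. Madm had 260 in replicate 1 and no summit within 100 bp in replicate 2, unlike the other 9.

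The classes also differed in where in the gene their members lay, in part by their definition. On the canonical transcripts, 10 of 20 coding IDR members were in internal exons, 4 in last exons and 2 in first exons, and 4 lay outside the canonical transcript. Among all 728 coding members the corresponding numbers were 396, 207, 45 and 35. In 3' UTRs 44 of 61 IDR members were in last exons, against 389 of all 557 members. In other exons 40 of 67 were in genes of a single exon, against 178 of all 319. The median distance of IDR members to the nearest TSS was 811 bp in 5' UTRs, 1069 bp in other exons, 1410 bp in coding sequence and 1811 bp in 3' UTRs. Over all members of these classes it was 840, 1142, 1436 and 2084 bp. Another IDR summit lay within 1000 bp of 23.9% of IDR members in other exons, 22.5% in 5' UTRs, 15% in coding sequence and 11.5% in 3' UTRs. Among members outside the IDR list the corresponding shares were 13.5%, 16.5%, 9.32% and 7.06%.

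Summits were spread over many genes. The 1875 members lay in exons of 1422 genes, 1120 of which held 1, and the 188 IDR summits in 174 genes. Next to CR43334, the most members were in lncRNA:CR43650 with 11, bun and corto with 9 each and Glut4EF with 8, of which CR43650 held 1 IDR summit, bun 2 and the other genes 0. Besides CR43334, 10 genes held at least 2 IDR summits, namely lncRNA:CR43126 with 3 and CAP, CG1888, Myd88, bun, by, lncRNA:CR44365, lncRNA:CR44603, lncRNA:CR44619 and lncRNA:CR45911 with 2 each. In Myd88, CR43126 and CR45911 the closest pair lay 199 to 202 bp apart, less than the usual interval of 404 bp. Of the 188 IDR members, 9 had another IDR summit within 210 bp, and whether these are separate sites was not tested.

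Lists of developmental and structural genes held relaxed members in larger shares than all protein-coding genes. Of 13945 protein-coding genes, 8.74% held an exonic summit of the relaxed list and 0.853% an exonic IDR summit. Among 34 annotated genes of cytoskeleton and muscle structure 16 held a relaxed member and 2 (5.88%) an IDR one, in baz, a polarity scaffold, and chic, the profilin gene. Among 41 axon guidance and adhesion genes 19 held a relaxed member, and 1 (2.44%), NetB, an IDR one. Among 72 developmental transcription factors 15 held a relaxed member, and 2 (2.78%) an IDR one, in Mef2, the muscle factor, and pros, the neural homeodomain factor. Among 36 signalling receptors and ligands 11 held a relaxed member and 0 an IDR one. Histones had 2 of 4 and 0, and ribosomal proteins 1 of 39 and 0. A coding IDR summit was in 20 of the 13945 protein-coding genes and in 0 of the listed ones, and the lists are too short for this to be a result about them. The same holds for the exonic IDR members, which were in 0 to 2 genes of each list. Gene length differs between these lists and was not adjusted for.

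Of the 5 IDR members of these lists, NetB, pros and Mef2 lay above the median pooled signal of the IDR list, 221, with 381, 327 and 319, and chic and baz below it, with 167 and 149. Mef2, in its 5' UTR, had 134 in replicate 1 and 175 in replicate 2, and pros, in its 3' UTR, had 146 and 188. The baz summit had 67.7 and 96.5 and the chic summit 71.3 and 94.3. In replicates 1 and 2 they ranked 2600 and 1441 of 30000 (Mef2), 2307 and 1274 (pros), 6662 and 3346 (baz) and 6206 and 3438 (chic).

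Relaxed members lay at 67.2 to 77.1 per Mb of exon on X and the large autosome arms, and at 23.5 on chromosome 4, from 9 members. IDR members ran from 6.35 per Mb (4.28 to 9.06) on 2L to 8.25 (6.16 to 10.8) on 3R among the large chromosomes. Chromosome 4 held 1 IDR member, the Cals and sv site, at 2.61 per Mb (0.066 to 14.5).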

How the data were processed

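The data are chromatin immunoprecipitation peaks of 2 replicates in 1 group. Per the deposited README files, relaxed lists were made from each replicate's alignments with a control and from the pooled alignments, and the IDR list from these. The signal value of each peak is the authors' own, as deposited, and its scale is not given in the sources used here. Neither are the aligner, the program that called peaks, its version or the threshold of the IDR step. No read counts are in the files, so depth is unknown. Lists on the build dm3 were not used.

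Summits were placed 1-based on dm6 and classed with Ensembl annotation release 115 (BDGP 6.54). The annotation held 23697 TSSs, counted over the 6 chromosomes with peaks and Y. A position more than 500 bp from every TSS took the first that applied of coding sequence, 5' UTR, 3' UTR, other exon, intron and intergenic; the rest was promoter. Genes and transcripts overlap, so a member can belong to several. All 5921 IDR summits were found in the pooled list. A member was found in a replicate when a summit of that replicate lay within 100 bp. A+T content and motifs were read in 101 bp windows. Shares carry Wilson and densities exact Poisson 95% intervals, which cover counting error only. No significance test was run, since there is 1 group. The classing was tested on simulated data and matched at 3000 of 3000 positions. Python 3.11.15, NumPy 2.4.6, SciPy 1.17.1, pandas 2.3.3 and matplotlib 3.10.9 were used.

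Named genes are those with a coding IDR summit, those of the 10 strongest IDR summits of each other class, the 5 with most members, those with at least 2 IDR members, and listed genes with an IDR member. Sequences are those of the 3 strongest coding and non-coding RNA IDR summits that can be shown, plus klar and HisRS. The genes with the CTCF core were named after their windows were seen. Members, gene lists and motifs were chosen with earlier results of these data known. Alternatives covered the TSS distance, intron overlap, class order, rank threshold, matching distance, window size and each replicate alone.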

Additional observations from a re-analysis of the deposited data

How the results depend on the processing

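Of 61 alternative values, 38 stayed within their counting interval or within 1.5 times a count, and 23 moved. With a TSS distance of 250 bp there were 284 exonic IDR summits at 9.29 per Mb, and with 1000 bp 115 at 5.68 per Mb and 8.93% of 5' UTR summits in the IDR list. Counting only positions in no intron of any transcript gave 119 exonic IDR summits, 5.33 per Mb, 8.47% of exonic summits and 8.80% of 5' UTR summits in the IDR list. With the stronger 2960 summits of the IDR list there were 92 exonic ones, 3.48 per Mb, and the shares were 4.91% of exonic, 0.962% of coding, 7.01% of 5' UTR, 5.21% of 3' UTR and 11.6% of other exon summits, lower because fewer summits were kept. The strongest 1000 and 3000 summits of the pooled list, added after seeing the data, held 0.275% and 0.962% of coding summits. With each replicate's own list, leaving out the other, the exonic share ran from 7.79% to 9.51% and the coding share from 1.33% to 2.33%, the exonic count from 183 to 198 and the density from 6.92 to 7.49 per Mb. The 5' UTR share ran from 15.5% to 17.6%, the 3' UTR share from 9.67% to 10.3% and the other exon share from 19.9% to 23.0%. Exonic summits found in both replicates were 23.4% within 50 bp, 39.7% within 200 bp and 6.45% when only the strongest 5921 of each replicate counted. The 5' UTR share, above the 3' UTR share in the report, fell below it at 1000 bp (8.93% against 11.04%) and in no intron (8.80% against 11.4%). Coding sequence had the lowest share in the IDR list of the 4 classes in each of these settings that gave all 4 shares. The cause of the other shifts was not tested. Depth is unknown, and the 20 coding IDR summits limit the precision of every statement about them.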
